A study of Mus musculus with 9 samples.

Results

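The genes described here are the 5 subunits of the transcription factor NF-kappaB (Nfkb1, Nfkb2, Rela, Rel and Relb) and 5 of its feedback inhibitors (Nfkbia, Nfkbiz, Bcl3, Tnfaip3 and Zc3h12a). They were taken by symbol from the deposited expression table, and all 10 were found among its 25124 genes. The table holds 9 RNA sequencing libraries of whole ear skin from C57BL/6 mice. All mice carried Staphylococcus epidermidis strain LM087, a skin bacterium swabbed on the ears on alternate days, and the skin was taken on day 8. The bacterium alone was given for 5 libraries, and for 4 the mice also had an antibody against CTLA-4, the checkpoint receptor that restrains T cells. The comparison asks how skin that carries the bacterium differs when that checkpoint is blocked. Skin without the bacterium was not analysed here. The labels number the replicates without tying each to an animal, so p-values reflect the spread between libraries, part of which may be technical.

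NF-kappaB acts as pairs of subunits that bind short DNA motifs and switch on genes of inflammation and cell survival. In resting cells the pairs are held in the cytoplasm by inhibitor proteins of the IkB family, and receptors for interleukin-1, TNF or bacterial products release them through a kinase complex (the canonical branch). A second, non-canonical branch runs through lymphotoxin and CD40-type receptors and processes the Nfkb2 product so that it can act with RelB. Several NF-kappaB target genes encode inhibitors of the pathway, so the mRNA level of these feedback inhibitors is often read as a trace of recent NF-kappaB activity.

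The regulatory sequence in front of these genes is shown first, because feedback by NF-kappaB on its own genes would act through such motifs. The RefSeq promoter windows on GRCm38.p6 run from 250 bases before to 50 bases after a start site. They were matched by symbol for 7 of the 10 genes; Nfkb1, Nfkbiz and Relb had no entry. Each window was searched on both strands for the NF-kappaB consensus motif (the kappa-B site), which is 10 bases long, and bases inside a match are in capitals. Of the 7 genes, 5 had a match in at least 1 window (Nfkb2, Rel, Nfkbia, Bcl3 and Tnfaip3), and Rela and Zc3h12a had none. A match stood in 8.46% of all 32851 promoter windows, and of 11822 tested genes with a window 12.3% had one at any start.

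Nfkb2 is shown at its most upstream listed start (chr19:46304487-46304786, plus strand) and at the start where the deposited gene span begins (chr19:46305680-46305979, plus strand). The upstream window held 3 matches, a pair of them overlapping at -39 to -29 and one at -11 to -2, counted from the start site at 0.
Nfkb2, upstream start: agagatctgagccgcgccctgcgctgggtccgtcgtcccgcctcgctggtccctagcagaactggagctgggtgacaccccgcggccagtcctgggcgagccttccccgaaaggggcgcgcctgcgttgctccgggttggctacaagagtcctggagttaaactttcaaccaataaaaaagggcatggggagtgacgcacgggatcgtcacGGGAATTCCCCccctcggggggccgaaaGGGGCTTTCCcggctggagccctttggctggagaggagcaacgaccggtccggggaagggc
Nfkb2, start of the deposited span: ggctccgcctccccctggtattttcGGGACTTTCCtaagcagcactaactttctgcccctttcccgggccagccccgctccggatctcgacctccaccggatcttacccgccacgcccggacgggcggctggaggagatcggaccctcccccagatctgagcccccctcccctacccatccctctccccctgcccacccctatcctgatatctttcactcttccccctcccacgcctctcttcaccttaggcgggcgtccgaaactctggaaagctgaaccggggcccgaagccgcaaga
Nfkbia (chr12:55492598-55492897, minus strand) had a match at -29 to -20. Bcl3 (chr7:19822706-19823005, minus strand) had a match on both strands just after its start, at 2 to 11. Zc3h12a (chr4:125127832-125128131, minus strand) is shown as the feedback inhibitor with no match.
Nfkbia: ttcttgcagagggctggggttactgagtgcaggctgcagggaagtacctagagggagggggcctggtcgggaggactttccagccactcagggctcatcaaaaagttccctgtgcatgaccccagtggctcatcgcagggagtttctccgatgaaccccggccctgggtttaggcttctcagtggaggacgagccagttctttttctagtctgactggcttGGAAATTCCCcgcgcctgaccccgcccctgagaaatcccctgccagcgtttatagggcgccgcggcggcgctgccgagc
Bcl3: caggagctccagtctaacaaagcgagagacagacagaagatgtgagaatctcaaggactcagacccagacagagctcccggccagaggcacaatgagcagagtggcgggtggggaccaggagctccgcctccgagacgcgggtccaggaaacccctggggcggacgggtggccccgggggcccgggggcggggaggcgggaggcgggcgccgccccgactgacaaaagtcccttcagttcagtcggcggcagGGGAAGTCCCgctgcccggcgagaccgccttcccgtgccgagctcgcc
Zc3h12a: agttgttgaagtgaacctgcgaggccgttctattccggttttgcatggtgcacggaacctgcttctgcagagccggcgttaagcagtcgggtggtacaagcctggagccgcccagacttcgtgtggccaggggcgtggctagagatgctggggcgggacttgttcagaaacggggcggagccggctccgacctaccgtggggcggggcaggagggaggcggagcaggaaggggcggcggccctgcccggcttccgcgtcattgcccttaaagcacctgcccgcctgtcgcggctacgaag
A match describes letters only and does not show that the factor binds there.

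Values are TPM, a gene's reads divided by its length and scaled to a common library total. The length used in the deposited table is the distance from the gene's first to its last base, introns included, for 24932 of 25124 genes. Multiplying TPM by that length gave whole multiples of a fixed step in each library for at least 99.99% of the values checked (tolerance 0.1 reads), and so returned the read numbers, between 10213773 and 13868671 per library. The 10 genes had between 194 and 3503 reads per library. Counting error alone therefore gives 95% exact Poisson intervals of ±3.33% to ±14.3% on their TPM, which cover counting error only. Ribosomal RNA entries took 30.6% to 40.2% of the listed TPM. The keratinocyte markers, which define skin epidermis, were present in all libraries, with a summed level of 20795 to 26475 TPM with the bacterium alone and 18917 to 22202 TPM with the antibody. Among 15704 genes tested with limma on log2(TPM + 1), 1124 (7.16%) were higher and 704 (4.48%) lower with anti-CTLA-4 at a Benjamini-Hochberg adjusted p under 0.05. This split was 1314 to 1429 after quantile normalization, 1302 to 1313 on a common median and 1205 to 1306 when the 50 most abundant genes were left out. Markers of leukocytes moved with the antibody, and the keratins Krt1 and Krt10 moved in opposite directions. These are given below beside the genes.

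Of the 10 genes, Relb was called higher with anti-CTLA-4, none was called lower, and 9 were not called. This is 10% of the genes described, where 11.6% of all genes tested were called in either direction, 7.16% higher and 4.48% lower. An unadjusted p under 0.05 was reached by Relb and Nfkb2, 2 of 10 genes, against 26.4% of all genes. The single call lies near both background shares. The fitted difference was above 0 for 9 of the 10 genes, against 47% of all genes tested, with a median log2 difference of 0.13 against -0.014. For Rel this sign turned under scaling to a common median and when the 50 most abundant genes were left out. With the muscle covariate 6 of 10 were above 0, and Rel, Rela, Nfkbia and Nfkbiz were below. In whole tissue, a change in the number of cells that carry an mRNA and a change in its amount per cell cannot be told apart.

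**Figure D1:**
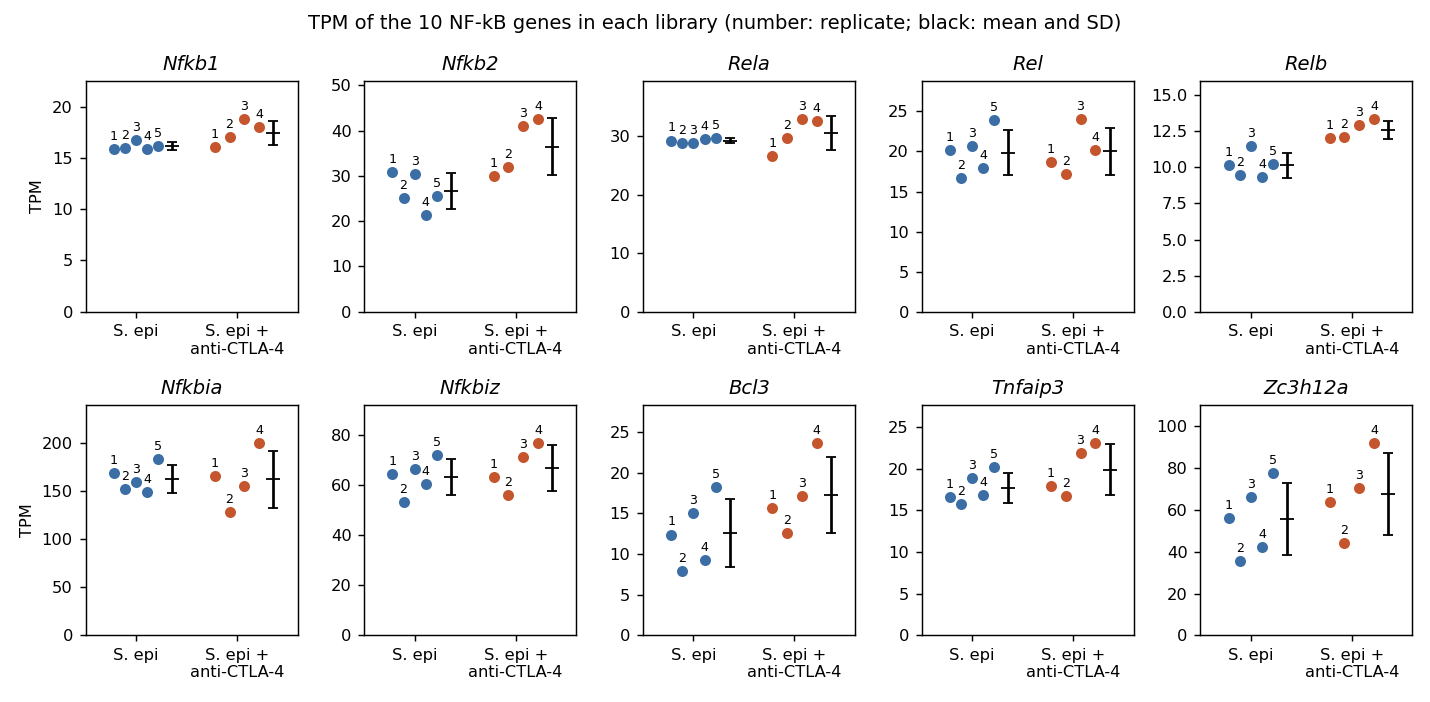
TPM (vertical axes, linear, each starting at 0) of the 5 subunits (upper row) and 5 feedback inhibitors (lower row) in each library, with replicate numbers, and the mean and SD of each group in black. Only for Relb do the 4 anti-CTLA-4 libraries (12.0 to 13.3 TPM) all lie above the 5 libraries of the bacterium alone (9.30 to 11.5 TPM).

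Relb encodes RelB, the subunit that pairs with processed Nfkb2 product in the non-canonical branch (mm10 chromosome 7, 19606223 to 19629438, minus strand). Replicates 1 to 5 with the bacterium alone had 10.1, 9.48, 11.5, 9.30 and 10.2 TPM. Replicates 1 to 4 with anti-CTLA-4 had 12.0, 12.1, 12.9 and 13.3 TPM. Every library with the antibody was above every library without it, a separation that 8.02% of all tested genes showed in this direction and 14.4% in either. Group means were 10.1 ± 0.862 and 12.6 ± 0.639 TPM (SD, n = 5 and 4), and Relb rose by a log2 difference of 0.29 ± 0.069 (SE), a 1.22-fold change (95% interval 1.10 to 1.36, limma adjusted p = 0.0275). Coefficients of variation were 8.51% in the control and 5.08% in the antibody group, where counting alone gives 5.27% and 4.70%. An exact two-sided permutation test on Relb alone gave p = 0.0159 before adjustment, the smallest that the 126 splits of 9 libraries allow. The call ended when S. epidermidis replicate 1, 2 or 4 or anti-CTLA-4 replicate 3 or 4 was left out (limma adjusted p as high as 0.0778), and with the mean of skeletal muscle or of hair follicle markers as a covariate (limma adjusted p = 0.304 and 0.223). With these covariates the log2 difference of Relb was 0.25 ± 0.11 and 0.26 ± 0.096 (SE), so its size was kept while its error grew. Both marker means tended to be lower with the antibody, so fits with them cannot separate the covariate from the antibody.

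Nfkb2 encodes the precursor whose processing is the hallmark of the non-canonical branch (mm10 chromosome 19, 46305930 to 46312090, plus strand). The libraries of the bacterium alone had 30.8, 25.2, 30.4, 21.4 and 25.5 TPM, and those with anti-CTLA-4 had 30.1, 32.0, 41.1 and 42.5 TPM. The groups touched only at the lowest antibody library, replicate 1, which lay below S. epidermidis replicates 1 and 3, while antibody replicates 3 and 4 were far above the rest. Group means were 26.7 ± 3.95 and 36.4 ± 6.30 TPM (SD, n = 5 and 4). The log2 difference of 0.43 ± 0.14 (SE), with a 95% interval of 0.13 to 0.74, did not pass adjustment over all genes (limma adjusted p = 0.0731). It did pass when only protein-coding genes were tested (limma adjusted p = 0.0446). It also passed in limma voom on the recovered reads, an alternative chosen after seeing the data, with an adjusted p of 0.0205 scaled to library totals and 0.0261 scaled by median ratios. That fit called more genes in general, 19% and 19.7% of those tested under its 2 scalings, against 11.6% on TPM, and it called Relb too. Other settings moved Nfkb2 away from the threshold: the log2 difference was 0.20 with the muscle covariate (limma adjusted p = 0.690), the adjusted p was 0.0908 with array weights, and with 1 library left out it lay between 0.0576 and 0.176. The end of the Nfkb2 span overlaps the opposite-strand gene Psd by a few bases (46312085 to 46312090).

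**Figure D2:**
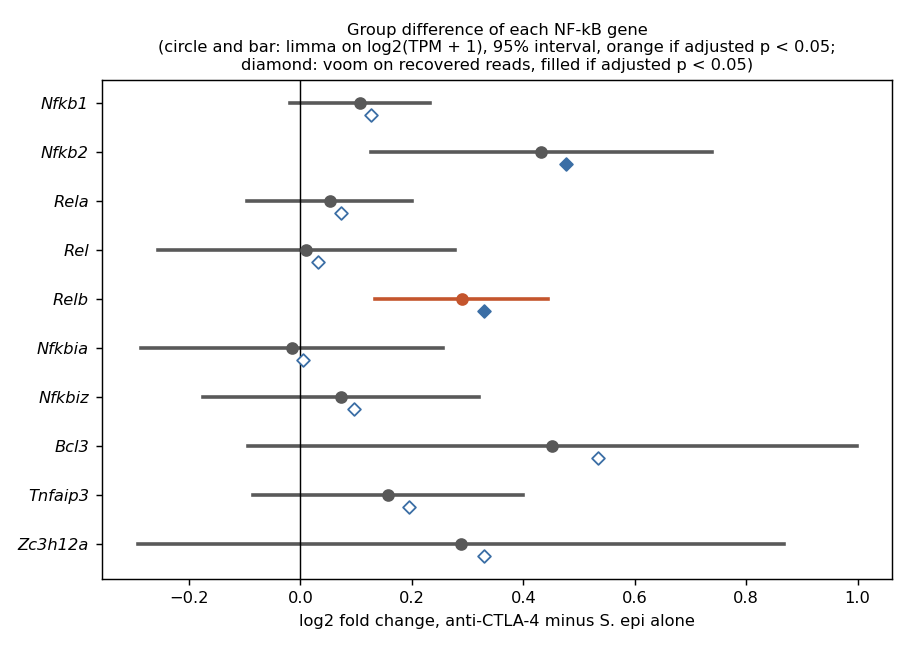
Log2 difference, anti-CTLA-4 minus the bacterium alone, of each gene. Circles and bars give limma on log2(TPM + 1) with the 95% interval, orange where the adjusted p is under 0.05, and diamonds give voom on recovered reads scaled by median ratios, filled where called. Relb (0.29) is called by both and Nfkb2 (0.43) by voom alone, and the intervals of Bcl3 and Zc3h12a are the widest.

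The remaining subunits carry the canonical branch and differed less between the groups. Nfkb1 encodes the precursor of the most widely used DNA-binding partner (chromosome 3, 135584655 to 135691547, minus strand). It had 15.8, 16.0, 16.8, 15.9 and 16.2 TPM with the bacterium alone and 16.1, 17.0, 18.8 and 18.1 TPM with anti-CTLA-4. Of the antibody libraries 3 of 4 lay above every control, and replicate 1 lay inside the control range. Its log2 difference was 0.11 ± 0.056 (SE, limma adjusted p = 0.259), with an interval of -0.018 to 0.23.

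Rela encodes p65, the main activating subunit (chromosome 19, 5637541 to 5648134, plus strand). The libraries of the bacterium alone had 29.3, 28.9, 28.9, 29.6 and 29.7 TPM, and those with anti-CTLA-4 had 26.7, 29.7, 32.9 and 32.7 TPM. The antibody libraries lay on both sides of a narrow control range. The control libraries varied by 1.26%, less than the 4.57% that counting alone gives, and the antibody libraries varied by 9.52%. The log2 difference was 0.053 ± 0.066 (SE, interval -0.096 to 0.20, limma adjusted p = 0.668).

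Rel encodes c-Rel, the subunit best known from lymphocytes (chromosome 11, 23736850 to 23770969, minus strand). It had 20.2, 16.7, 20.7, 17.9 and 23.9 TPM with the bacterium alone and 18.7, 17.2, 23.99 and 20.2 TPM with anti-CTLA-4. The ranges were nearly the same. The log2 difference was 0.010 ± 0.12 (SE), with an interval of -0.26 to 0.28 (limma adjusted p = 0.970).

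Among the feedback inhibitors none of 5 was called by limma or by voom, where 11.6% of all genes tested were called by limma, and none reached an unadjusted p under 0.05 in limma, where 26.4% did. Nfkbia encodes IkB-alpha, the inhibitor that retains NF-kappaB in the cytoplasm and is resynthesised after activation (chromosome 12, 55489409 to 55492647, minus strand). It had 169, 152, 159, 148 and 183 TPM with the bacterium alone and 166, 128, 155 and 199.6 TPM with anti-CTLA-4. The highest and the lowest of all libraries were both antibody libraries, replicates 4 and 2. The group means were 162 ± 14.1 and 162 ± 29.5 TPM (SD, n = 5 and 4). The log2 difference was -0.015 ± 0.12 (SE), with an interval of -0.29 to 0.26 (limma adjusted p = 0.955).

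Nfkbiz encodes IkB-zeta, a nuclear member of the family that serves as a co-activator of selected genes, among them epithelial genes induced by interleukin-17 (chromosome 16, 55811377 to 55822138, minus strand). It had 64.5, 53.3, 66.6, 60.4 and 72.1 TPM with the bacterium alone and 63.3, 56.0, 71.3 and 76.9 TPM with anti-CTLA-4. The groups overlapped over most of their range, and the log2 difference was 0.073 ± 0.11 (SE, limma adjusted p = 0.727).

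Bcl3 encodes another nuclear IkB protein, which binds homodimers of the Nfkb1 and Nfkb2 products (chromosome 7, 19808462 to 19822755, minus strand). It had 12.4, 7.88, 15.1, 9.31 and 18.2 TPM with the bacterium alone and 15.6, 12.6, 17.2 and 23.6 TPM with anti-CTLA-4. Only antibody replicate 4 exceeded S. epidermidis replicate 5, and no antibody library was as low as S. epidermidis replicates 1, 2 and 4. The log2 difference was 0.45 ± 0.24 (SE), with an interval from -0.095 to 1.00 (limma adjusted p = 0.275). It ranged from 0.30 without anti-CTLA-4 replicate 4 to 0.59 without S. epidermidis replicate 5, and was 0.23 with the muscle covariate.

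Tnfaip3 encodes A20, a ubiquitin-editing enzyme that shuts off signalling from the TNF and Toll-like receptors (chromosome 10, 19000910 to 19011963, minus strand). It had 16.6, 15.8, 18.9, 16.9 and 20.2 TPM with the bacterium alone and 18.0, 16.8, 21.9 and 23.1 TPM with anti-CTLA-4. Antibody replicates 3 and 4 lay above all controls, and replicates 1 and 2 lay among them. The log2 difference was 0.16 ± 0.11 (SE, limma adjusted p = 0.4004). It ranged from 0.086 without anti-CTLA-4 replicate 4 to 0.23 without anti-CTLA-4 replicate 2, and was 0.016 with the muscle covariate.

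Zc3h12a encodes Regnase-1, a ribonuclease that degrades inflammatory mRNAs (chromosome 4, 125118414 to 125127881, minus strand). It had 56.0, 35.6, 65.9, 42.3 and 77.6 TPM with the bacterium alone and 63.8, 44.2, 70.5 and 91.8 TPM with anti-CTLA-4. The groups overlapped from 44.2 to 77.6 TPM, most of the range of either. Its coefficients of variation were 30.8% and 29.1%, where counting alone gives 3.64% and 3.31%, so counting error made up little of this spread. The log2 difference was 0.29 ± 0.26 (SE, limma adjusted p = 0.531). It ranged from 0.13 without anti-CTLA-4 replicate 4 to 0.47 without anti-CTLA-4 replicate 2, and was 0.093 with the muscle covariate.

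The feedback inhibitors ranked the libraries within each group much alike. All 5 were highest in S. epidermidis replicate 5 within the control group and in anti-CTLA-4 replicate 4 within the antibody group. Nfkbiz, Bcl3 and Zc3h12a ranked all libraries alike, with replicates 5, 3, 1, 4 and 2 from high to low in the control group and 4, 3, 1 and 2 in the antibody group. Tnfaip3 had the same order in the antibody group. Of all 10 genes, 7 were highest in S. epidermidis replicate 5 and 7 in anti-CTLA-4 replicate 4, while 6 were lowest in S. epidermidis replicate 2 and 6 in anti-CTLA-4 replicate 2. Relb was also highest in anti-CTLA-4 replicate 4, but among controls it was highest in replicate 3, with replicate 5 beside replicate 1. These are descriptions of 9 libraries in which all genes share depth and scaling.

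Other measures moved only in part with this order. S. epidermidis replicate 5 had 10914657 recovered reads and the highest ribosomal share of its group (37.7%), whereas anti-CTLA-4 replicate 4 had 13868671 reads and a ribosomal share of 32.5%, with 30.6% to 40.2% in its group. The chemokine Cxcl2, a classical NF-kappaB target, had 0.959, 0.285, 4.01, 0.666 and 13.5 TPM in the control libraries, so its highest and lowest controls were also replicates 5 and 2. With the antibody it had 25.6, 47.7, 29.4 and 23.5 TPM, and its highest library was replicate 2, in which 6 of the 10 genes were lowest, and its lowest replicate 4. The mean log2(TPM + 1) of the immediate early response genes was 5.13, 5.44, 5.10, 5.51 and 5.12 in S. epidermidis replicates 1 to 5. Replicates 4 and 2, lowest of the controls for Nfkbiz, Bcl3 and Zc3h12a, thus had the highest of these means. The mean of these genes was 5.34 in anti-CTLA-4 replicate 4, within the 5.26 to 5.39 of the antibody group. The part of these measures in the pattern was not tested.

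**Figure D3:**
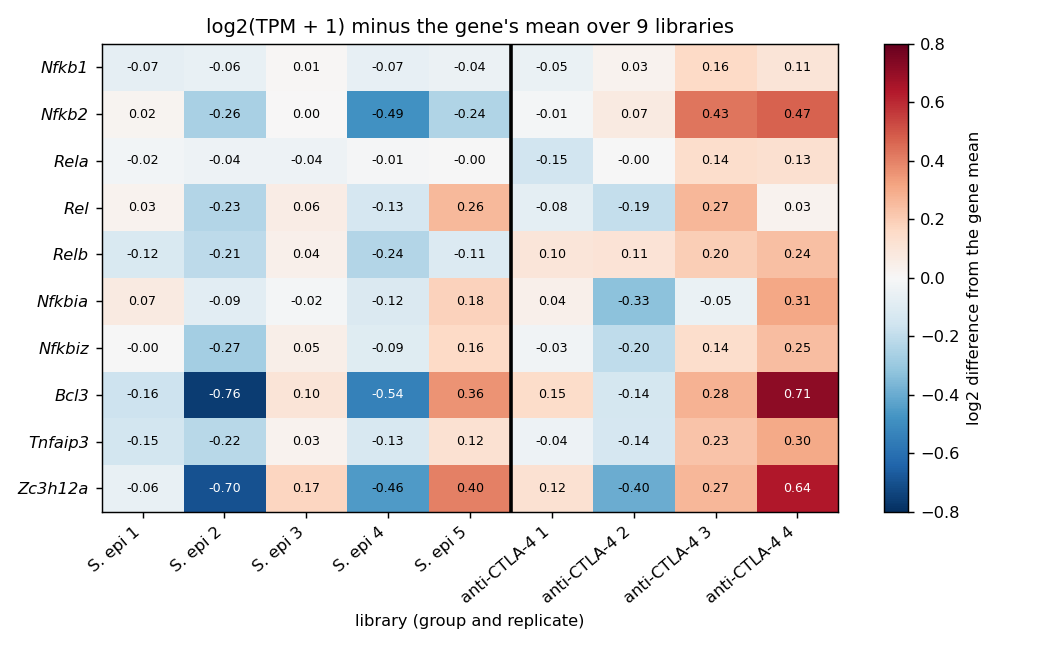
Log2(TPM + 1) of each gene (rows) in each library (columns) minus the gene's mean over the 9 libraries, with the value printed in each cell and the line dividing the 2 groups. Bcl3 and Zc3h12a span the widest range, from -0.76 and -0.70 in S. epidermidis replicate 2 to 0.71 and 0.64 in anti-CTLA-4 replicate 4, while Relb is above its mean in all 4 antibody libraries.

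The balance between genes was examined with 4 ratios within a library, each compared by an exact two-sided permutation test and adjusted over the 4. The log2 ratio of Nfkb2 to Nfkb1 was 0.68 ± 0.20 with the bacterium alone and 1.00 ± 0.16 with anti-CTLA-4 (SD, n = 5 and 4, exact p = 0.0635, adjusted p = 0.0847). That of Relb to Rela was -1.45 ± 0.12 and -1.21 ± 0.083 (exact p = 0.0317, adjusted p = 0.0847), with 3 of 4 antibody libraries above every control. Both compare a non-canonical with a canonical subunit, and both were higher with the antibody without passing the adjusted threshold. Of the nuclear against the cytoplasmic inhibitors, Bcl3 to Nfkbia was -3.64 ± 0.36 and -3.17 ± 0.13 (exact p = 0.0476, adjusted p = 0.0847). Nfkbiz to Nfkbia was -1.35 ± 0.096 and -1.26 ± 0.13 (exact p = 0.286, adjusted p = 0.286). The smallest p that this design allows is 0.0159.

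Levels between genes depend on the length used. By deposited TPM, which is per base of gene span, the order of mean levels over the 9 libraries was Nfkbia (162 TPM), Nfkbiz (65.0), Zc3h12a (60.8), Nfkb2 (31.0), Rela (29.8), Rel (19.9), Tnfaip3 (18.7), Nfkb1 (16.7), Bcl3 (14.7) and Relb (11.2). Neighbours in this order overlapped in their ranges over libraries, except Nfkbia with Nfkbiz and Rela with Rel. Nfkb1, whose span of 106892 bases is the longest, had by far the most reads, 2341 to 3503 per library. With the longest GENCODE M21 transcript as length instead, Nfkb1 came first with 549.5 reads per kb of transcript, followed by Nfkbia (425) and Zc3h12a (268). Relb came eighth with 102 and Tnfaip3 last with 42.5. The sources used here do not say whether reads in introns were counted, so neither order is a molar order of mRNAs. The length of a gene is the same in both groups. If intron reads were counted, the comparisons of a gene between groups include them.

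The rest of the pathway was read from lists chosen by known role, with earlier results of these data in view. Among ligands and receptors that activate NF-kappaB, 9 of 23 tested genes of 28 were called higher and none lower, which is 39.1%, against 7.16% of all genes called higher, with a median log2 difference of 0.34 (5 without anti-CTLA-4 replicate 2). With the skeletal muscle covariate no gene of the 4 pathway lists was called, and with the hair follicle covariate 2 upstream genes and 1 of each other list were. All 26 called genes of these lists kept their direction in both, with a median absolute log2 difference of 0.70, then 0.65 and 0.76, and a median SE of 0.13, then 0.20 and 0.18. Being called in the same libraries, they were likely to keep it. The antibody libraries did not overlap the controls for Tlr9, the endosomal sensor of bacterial DNA, which rose from 12.1 ± 1.98 to 28.0 ± 5.02 TPM (SD, n = 5 and 4, limma adjusted p = 0.00289). Tnfrsf1b, a TNF receptor of immune cells, rose from 6.51 ± 1.44 to 15.0 ± 2.67 TPM, Tlr1, a partner of Tlr2 in sensing lipoproteins, from 2.92 ± 1.10 to 8.41 ± 1.02 TPM, and Tlr4, the lipopolysaccharide receptor, from 10.7 ± 1.40 to 14.6 ± 0.239 TPM. Il36g was not found in the table by symbol, and Cd40lg, Tnfsf11, Il17a and Il17f did not pass the expression filter.

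Kinases and adaptors, which carry the signal to the subunits, were called for 4 of 32 genes, 3 higher and 1 lower, a share of 12.5% that is close to the 11.6% of all genes, with a median log2 difference of 0.10. Of the 3 higher genes 1 passed the expression filter only through the antibody group. The count was 7 without S. epidermidis replicate 3, 2 without anti-CTLA-4 replicate 2 and 1 without anti-CTLA-4 replicate 1, 3 or 4. Irak4, the kinase next to the Toll-like and interleukin-1 receptors, rose from 7.04 ± 0.538 to 9.68 ± 0.369 TPM (SD, n = 5 and 4, limma adjusted p = 0.00524). Sharpin, a part of the linear ubiquitin ligase, rose from 27.1 ± 1.93 to 33.1 ± 1.99 TPM, and Card14, a scaffold of NF-kappaB signalling in keratinocytes, fell from 20.3 ± 3.58 to 14.5 ± 0.825 TPM. The call of Sharpin ended without S. epidermidis replicate 1, 2 or 5 or anti-CTLA-4 replicate 1, 3 or 4, and that of Card14 without S. epidermidis replicate 5 or any antibody library (limma adjusted p as high as 0.0725 and 0.0811).

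The genes around Relb and Nfkb2 in the non-canonical branch were then read by role. Of 11 such genes, Ltb, the lymphotoxin subunit that starts this branch, was called and rose from 5.69 ± 1.67 to 11.9 ± 3.32 TPM (limma adjusted p = 0.0222). Of all genes tested, 7.16% were called higher. All 11 fitted differences were above 0, against 47% of all genes, with a median of 0.096, and 5 had an unadjusted p under 0.05, against 26.4%. The 11 were Ltb, Ltbr, Cd40, Tnfsf13b, Tnfrsf13c, Map3k14, Chuk, Traf2, Traf3, Birc2 and Birc3. They include genes that restrain the branch as well as genes that drive it, so a shared sign is not a measure of its activity. Birc3, a ubiquitin ligase of the complex that restrains the branch and itself an NF-kappaB target, had 27.2 ± 2.78 and 33.6 ± 2.55 TPM without overlap between the groups (limma adjusted p = 0.0510). Map3k14, the kinase NIK that drives the branch, had 8.29 ± 1.13 and 10.6 ± 1.38 TPM (limma adjusted p = 0.0880), and the receptor Cd40 had 2.65 ± 1.31 and 4.74 ± 0.592 TPM (limma adjusted p = 0.0826). The lymphotoxin receptor Ltbr had 28.4 ± 1.28 and 31.3 ± 1.38 TPM (limma adjusted p = 0.156). The 3 genes of the canonical kinase complex, Chuk, Ikbkb and Ikbkg, were not called, with log2 differences of 0.096, 0.16 and -0.035. Chuk serves both branches and is also among the 11, where its difference is the median, so the groups are not separate. Ikbkb had an unadjusted limma p of 0.0344.

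Among 25 tested inhibitors outside the 5 above, 4 were called higher and 1 lower. This is 20%, against 11.6% of all genes called in either direction, with a median log2 difference of 0.021 against -0.014. The split of higher to lower calls depended on the scaling, at 3 to 4 after quantile normalization and on a common median, and 3 to 3 without the 50 most abundant genes. The count was 3 without S. epidermidis replicate 2 or 4 or anti-CTLA-4 replicate 1 or 4. Nfkbie, which encodes the cytoplasmic inhibitor IkB-epsilon, rose from 9.25 ± 1.34 to 14.8 ± 1.45 TPM without overlap (SD, n = 5 and 4, limma adjusted p = 0.00670). Its relatives were not called: Nfkbid, a nuclear IkB protein, had 4.57 ± 1.14 and 6.56 ± 0.693 TPM without overlap (limma adjusted p = 0.0792), and Nfkbib had 18.9 ± 1.496 and 18.7 ± 1.98 TPM. Of the IkB genes, therefore, Nfkbie was called while Nfkbia had a difference of -0.015, and the difference between these 2 genes was not tested. Zc3h12d, a relative of Zc3h12a, rose from 1.13 ± 0.202 to 2.64 ± 0.501 TPM, and Pdlim2, a ubiquitin ligase that targets nuclear Rela protein, fell from 29.3 ± 3.85 to 20.8 ± 0.575 TPM. N4bp1, a ribonuclease that dampens NF-kappaB responses, rose from 17.3 ± 1.19 to 20.7 ± 1.26 TPM, and the A20 partner Tnip3, chosen after its values were seen, from 1.06 ± 0.193 to 1.56 ± 0.0489 TPM. These last calls were fragile to single libraries (limma adjusted p as high as 0.110 and 0.0972), N4bp1 staying called only without S. epidermidis replicate 5 or anti-CTLA-4 replicate 2 and Tnip3 only without S. epidermidis replicate 1.

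Of 27 tested genes among 30 known NF-kappaB targets, 8 were called higher and none lower. This is 29.6%, against 7.16% of all genes called higher, with a median log2 difference of 0.50 against -0.014. Cxcl2 rose from 3.88 ± 5.58 to 31.5 ± 11.02 TPM, with every antibody library above every control. Saa3, an acute phase protein, had 0.354, 4.74, 2.91, 1.11 and 4.22 TPM with the bacterium alone and rose to 10.2, 21.4, 34.5 and 22.5 TPM with anti-CTLA-4 (limma adjusted p = 0.00756). Cxcl5, a neutrophil-attracting chemokine, had 1.96, 0.499, 4.596, 0.292 and 1.82 TPM and rose to 14.5, 6.765, 13.0 and 12.5 TPM (limma adjusted p = 0.00860). Mmp9, a matrix protease abundant in neutrophils, rose from 5.05 ± 1.34 to 9.74 ± 2.05 TPM. Il6, Csf3 and Nos2 did not pass the filter. Cxcl2 had a median under 1 TPM in the controls, so it passed the filter through the antibody group. The 19 targets that were not called included 2 with a difference below 0.

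**Figure D4:**
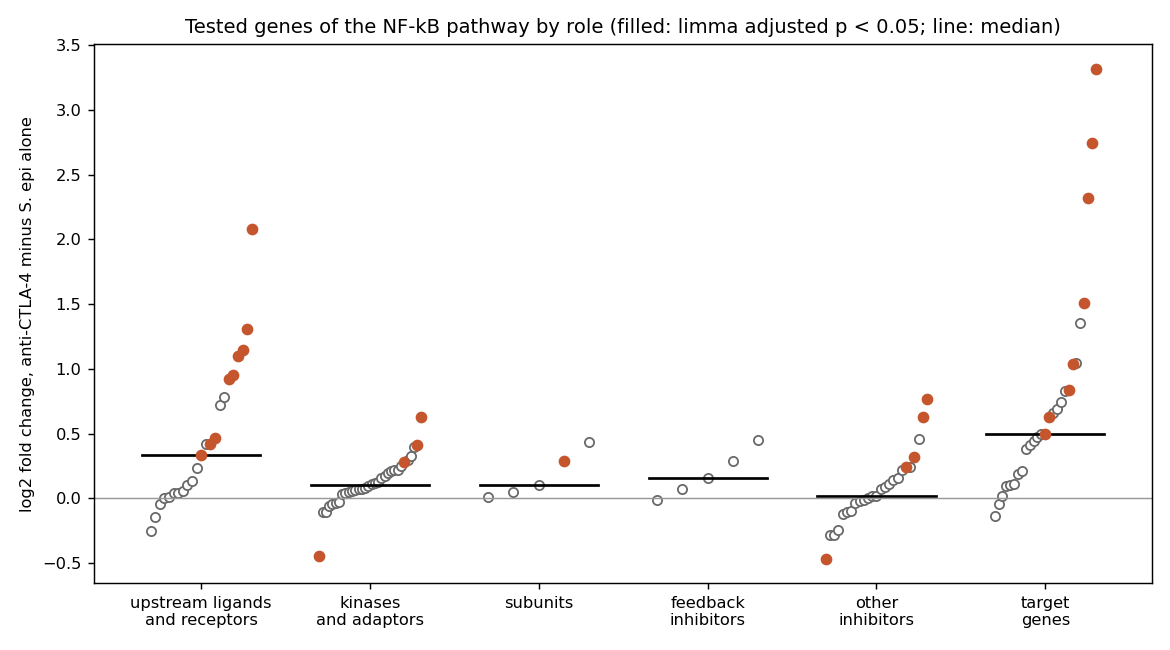
Log2 difference, anti-CTLA-4 minus the bacterium alone, of each tested gene by role in the pathway, filled where the limma adjusted p is under 0.05, with a line at the median of each role. The medians are 0.34 for upstream ligands and receptors, 0.10 for kinases and adaptors, 0.11 for subunits, 0.16 for feedback inhibitors, 0.02 for other inhibitors and 0.50 for target genes.

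Markers of infiltrating cells moved with the antibody in the same libraries, where 7.16% of all genes tested were called higher and 4.48% lower. All 5 pan-leukocyte markers were called higher, with a summed level of 114 to 156 TPM with the bacterium alone and 295 to 385 TPM with anti-CTLA-4. All 5 T cell markers were called higher as well (15.5 to 20.8 and 38.1 to 49.7 TPM), as were 5 of 6 monocyte and macrophage markers (308 to 459 and 519 to 814 TPM). The 5 neutrophil markers summed to 9.65 to 21.9 and 30.7 to 38.2 TPM. Of these, Csf3r and Cxcr2 were called higher, Retnlg passed the expression filter only through the antibody group, and Ly6g and Retnlg were listed at 0 in some libraries. The 4 B cell markers summed to 1.66 to 2.59 and 3.02 to 3.70 TPM. Of these, Cd79b alone was tested, and it passed the filter only through the antibody group, while Ms4a1 was listed at 0 in some libraries. None of 5 dendritic and Langerhans cell, 4 endothelial or 4 fibroblast markers was called. Of 6 keratinocyte markers, Krt1 alone was called, and rose from 792 ± 229 to 1506 ± 301 TPM (SD, limma adjusted p = 0.0245). Krt10, the most abundant of them, went from 16685 ± 1688 to 12599 ± 1106 TPM without overlap between the groups and was not called. Of 5 skeletal muscle markers 1 was called lower (575 to 878 and 462 to 722 TPM), and of 4 tested hair follicle markers 1 was called lower (17.1 to 36.6 and 11.7 to 16.9 TPM over all 5). All 5 muscle markers and all 4 tested hair follicle markers had differences below 0, with median log2 differences of -0.58 and -0.65. The part of leukocyte content in the differences of Relb, Nfkb2 and the pathway lists was not tested.

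Within the antibody group, marker means were read beside the order of the feedback inhibitors. Anti-CTLA-4 replicate 4, highest for 7 of the 10 genes, had the lowest mean of pan-leukocyte markers in its group on the log2(TPM + 1) scale (5.37, against 5.50 to 5.76) and the lowest of monocyte and macrophage markers (5.39, against 5.82 to 5.91). It had the highest mean of keratinocyte markers (9.98, against 9.74 to 9.91). Replicate 3, next after it for Nfkbiz, Bcl3, Tnfaip3 and Zc3h12a, had the highest mean of pan-leukocyte markers (5.76). The mean of neutrophil markers was also highest in replicate 3 (2.30) and was 2.07 in replicate 4. It was lowest in replicate 2 (2.03), in which 6 of the 10 genes were lowest. A relation of these means to the genes was not tested.

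The genes whose pattern over the 9 libraries was most like that of the 3 genes with the smallest p were sought among 14013 other protein-coding genes. Likeness was the mean absolute difference of log2(TPM + 1) after each gene was centred on its own mean. For Relb the nearest were Lmnb1, a nuclear lamina gene (0.030), Melk, a mitotic kinase (0.043), and Col12a1, a fibrillar collagen partner (0.044), where the median candidate was at 0.19. For Nfkb2 they were the cell cycle kinase Cdk1 (0.060), the spindle gene Aspm (0.074) and the chemokine Cxcl14 (0.075), against a median of 0.26. For Nfkb1 they were Rrp1 (0.018), Cenpb (0.022) and Trim27 (0.025), against a median of 0.13. A like group difference follows from this choice, so it is not tested here.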

How the data were processed

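Total RNA of mouse ear skin was sequenced in 9 libraries, grouped and numbered by their titles. The submitters' processing notes name STAR, HOMER, DESeq2 and mm10, with no version or role given in the sources used here. The authors deposited TPM per gene with 3 decimals. The length behind it was the gene span, as tested on the file, and TPM × span returned whole reads.

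Of these genes, 15704 reached 1 TPM in 4 or more libraries. They were compared by limma (3.58.1, R 4.3.3) on log2(TPM + 1), with a variance trend, no covariate, two-sided tests and Benjamini-Hochberg adjustment over all of them at 0.05. Fold changes are on that scale, which understates changes of low genes. The fit was also run on counts simulated for each gene separately, and the outcome is not reported here. Ratios used exact permutation tests in scipy 1.17.1. Limma voom on recovered reads was added after seeing the data.

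Named were the 10 genes, the 4 smallest p-values of each pathway list and the 3 nearest patterns to the top 3 genes. Genes of the non-canonical branch, the canonical kinase complex and the IkB family were named by role. Not every gene named by this rule is reported here. The genes and lists were chosen with earlier results of these data known. Replicate numbers were checked for pairing, and alternatives are given at the end.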

Additional observations from a re-analysis of the deposited data

Results flagged for a closer look

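The highest and lowest library of each group were compared with the rest of the group by Dixon's gap for 36 named genes, or 72 groups, of which chance marks about 1 in 20. No group of the 10 NF-kappaB genes was marked, and 4 groups of other genes were. Cxcl2 had 13.5 TPM in S. epidermidis replicate 5, where the other libraries of that group had 0.285 to 4.01 TPM. N4bp1 had 19.4 TPM in the same library, against 16.5 to 17.0 TPM. Tlr4 had 13.2 TPM in S. epidermidis replicate 3, against 9.66 to 10.3 TPM, and Aspm had 4.04 TPM in S. epidermidis replicate 4, against 5.74 to 6.40 TPM.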

How the results depend on the processing

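Of 260 alternative values for the 10 genes, 231 kept their direction and side of the threshold. As 9 of the genes were not called, keeping their side means staying uncalled. For Relb, the only call, 18 alternatives kept it and 8 lost it. The exact permutation test entered with its unadjusted p. Reversals concerned genes near 0. The log2 difference of Nfkbia was 0.030 with the replicate block, 0.021 with the hair follicle covariate, 0.029 and 0.0047 with voom scaled to library totals and by median ratios, and -0.12 to 0.092 when 1 library was left out. Rel gave -0.001 scaled to a common median, -0.011 without the 50 most abundant genes, -0.0041 with array weights, -0.14 with the muscle covariate and -0.077 to 0.076 without 1 library. The muscle covariate also gave -0.030 for Nfkbiz and -0.081 for Rela. Calls in all genes, the 10 genes, upstream genes, kinases and adaptors, other inhibitors and targets numbered 1828, 1, 9, 4, 5 and 8. They became 1, 0, 0, 0, 0 and 0 with the muscle covariate and 362, 0, 2, 1, 1 and 1 with the hair follicle covariate. All 1828 genes kept their direction in both, with a median absolute log2 difference of 0.47, then 0.50 and 0.47, and a median SE of 0.10, then 0.15 and 0.14. These genes were chosen by their differences in the same libraries, so a kept direction is largely given by that choice. Voom called 2981 genes (1792 shared), 2 of the 10, 10 kinases and adaptors and 9 other inhibitors scaled to totals, and 3094 (1796 shared), 2, 9 and 8 by median ratios. A threshold of 0.1 gave 2854, 2, 10 and 8 of the same groups. Quantile normalization called 2743 genes and 7 kinases and adaptors, and scaling to a common median 7 of the latter. Protein-coding genes alone gave 2 of the 10, and a filter of 5 TPM gave 3 other inhibitors and 5 targets. Leaving out 1 library gave 1190 (without S. epidermidis replicate 2) to 1763 genes, 0 to 1 of the 10, 5 to 12 upstream genes, 1 to 7 kinases and adaptors, 3 to 5 other inhibitors and 6 to 10 targets. Same-numbered libraries deviated with correlations of -0.0086, 0.018, -0.091 and -0.093 for replicates 1 to 4. The labels do not say whether the numbers pair samples, and correlations of so few libraries cannot decide it. With the replicate block limma called 681 genes (593 higher, 88 lower), 0 of the 10, 1 kinase or adaptor and 3 other inhibitors, and Relb had a log2 difference of 0.29 with an adjusted p of 0.116, and Nfkb2 of 0.42 with an adjusted p of 0.202. By transcript length in place of gene span, 8 of 10 genes changed place in the order of levels. Counting error on the level of a gene in 1 library was at most ±14.3%, at 194 reads. This was for Nfkb2 in S. epidermidis replicate 4 and Bcl3 in S. epidermidis replicate 2. A difference between libraries carries the error of both.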
